A study of Mus musculus with 6 samples.

Results

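Glycogen is the branched glucose polymer that heart muscle keeps as a local fuel. Glycogenin primes each particle, glycogen synthase and the branching enzyme extend it from UDP-glucose, and glycogen phosphorylase, switched on by phosphorylase kinase, releases glucose 1-phosphate from it. Fetal and newborn heart muscle is known for large glycogen stores, which shrink in the weeks after birth as the tissue turns to fatty acids. The 9 genes described here encode steps of this cycle: Gys1, Gyg, Gbe1 and Ugp2 for synthesis, Pygm, Pygb and Pygl for breakdown, and Phka1 and Phkg1 for the kinase that activates breakdown. They were taken by symbol from a count table of 14495 genes, and all 9 were present and passed the filter on low counts.

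Hearts were taken from C57BL/6 males on postnatal day 1 (P1) or postnatal day 14 (P14), with no treatment and no engineered allele named. Each age had 3 libraries, and RNA from 3 hearts was pooled for each library, so 9 hearts stood behind an age and differences between single hearts are not visible. The labels name the left ventricle as the tissue, whereas the collection protocol speaks of ventricles with an intact septum after removal of the atria. The comparison asks how transcript levels differ between the 2 ages.

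Between P1 and P14, 2 of the 4 synthesis genes fell, the liver phosphorylase gene fell, and the muscle phosphorylase gene and 1 of the 2 muscle kinase subunit genes rose. Phkg1, the muscle catalytic subunit of phosphorylase kinase, rose 14.4-fold, and Pygm, the muscle glycogen phosphorylase, rose 2.38-fold. Pygl, the liver form of phosphorylase, fell 8.49-fold, Gyg (glycogenin) fell 4.17-fold, and Gbe1 (the branching enzyme) fell 2.69-fold. Gys1, Ugp2, Pygb and Phka1 did not pass the test. A gene is said to have risen or fallen where the quasi-likelihood test of edgeR, adjusted over all 14301 genes tested, gave a p below 0.05. Among all tested genes 21.8% rose and 22.0% fell, beside 2 rises and 3 falls among the 9, so the members' counts lie near the background. The median log2 fold change was −0.37 over the 9 genes and −0.01 over all tested genes.

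Library totals ranged from 5916557 to 17353933 counts at P1 and from 9104230 to 15725993 at P14. Levels are library-scaled counts (CPM, the share of a library's counts taken by a gene), adjusted with TMM factors (trimmed mean of M-values). Scaling by library totals alone shifted the median over all genes to a log2 fold change of −0.47 from −0.01, so each direction below holds relative to TMM. Cardiomyocyte markers were abundant in all libraries: 7 of 7 were tested and 5 rose, and their summed level was 56060 to 58140 CPM at P1 and 75430 to 94250 CPM at P14. In such bulk samples fewer cells of a type and less RNA per cell cannot be told apart. P1 replicate 2 stood apart from the other P1 libraries, with Spearman correlations of 0.951 and 0.957 to them against 0.981 between those 2. It was the highest P1 library for Ugp2, Gbe1 and Phka1 and the lowest for the other 6 genes. Transcript GC content was 39.7% in Ugp2, 43.1% in Gbe1 and 47.5% in Phka1, and it was 46.8% to 55.2% in the other 6.

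The bases before the annotated starts of Phkg1 and Pygm, which rose, are shown beside those of Gbe1, which fell, because the wider study profiled DNA methylation and the CpG content of these stretches differed; the 3 were picked after their values were seen. Each run holds the 250 bases before the RefSeq start (GRCm38.p6), read in the direction of the gene, and capitals mark CpG dinucleotides. Methylation itself was not analysed here.

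Phkg1, chr5:129879089-129879338, reverse strand: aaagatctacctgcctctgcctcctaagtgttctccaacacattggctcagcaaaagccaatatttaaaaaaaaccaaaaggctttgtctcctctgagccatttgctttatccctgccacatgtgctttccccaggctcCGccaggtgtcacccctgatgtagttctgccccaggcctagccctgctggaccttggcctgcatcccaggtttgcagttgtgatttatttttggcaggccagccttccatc
Pygm, chr19:6384158-6384407, forward strand: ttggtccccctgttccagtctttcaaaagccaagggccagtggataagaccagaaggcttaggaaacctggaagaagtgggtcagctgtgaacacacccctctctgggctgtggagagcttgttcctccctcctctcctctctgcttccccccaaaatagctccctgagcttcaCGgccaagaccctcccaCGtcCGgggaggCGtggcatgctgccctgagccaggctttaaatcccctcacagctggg
Gbe1, chr16:70313699-70313948, forward strand: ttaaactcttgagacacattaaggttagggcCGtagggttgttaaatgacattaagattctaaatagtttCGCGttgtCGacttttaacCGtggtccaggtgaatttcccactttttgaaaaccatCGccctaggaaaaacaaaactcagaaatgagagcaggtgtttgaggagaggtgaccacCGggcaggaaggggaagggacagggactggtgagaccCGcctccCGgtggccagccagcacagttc

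The Phkg1, Pygl and second Ugp2 stretches, with their RefSeq starts, lie wholly inside the longer GENCODE M21 models of their genes. The Phkg1 stretch overlaps no annotated exon. Other stretches do overlap annotated exons of their own or another gene. These cover 201 of the 250 bases in Gyg, 121 in Gys1, 93 in Pygl, 61 in Pygb, 58 in the first Ugp2 stretch and 9 in Pygm. The Phkg1 stretch held 1 CpG and the Pygm stretch 4, against 9 in Gbe1. Across the 10 such stretches of the 9 genes (Ugp2 has 2 starts), Phkg1 and Pygm were lowest, and the other 8 held 9 to 23 CpG. Over 32851 stretches of the same length the median was 6.0, 18.8% held at most 1, and 44.4% held at most 4. For the 9 of Gbe1, 62.2% held at most as many and 40.3% at least as many. Gyg held 13, Gys1 11, Pygb 17, Phka1 19 and Pygl 20. The letters CAGCTG, one form of the E-box, lay at 2 places in Pygm and at 1 place each in Gys1, Phka1 and the second Ugp2 stretch, and 4271 of the 32851 stretches hold them. The letters CCAAT, searched on both strands, lay at 2 places in Phkg1, 4 in Gys1 and 1 in the first Ugp2 stretch, and 33.8% of all stretches hold them. TATAAA, TNAAGGTCA (an oestrogen-related receptor motif) and the MEF2 motif, searched likewise, were in none of the 10, and 12.4%, 1.1% and 2.9% of all stretches hold them. These matches are descriptions of letters, and no binding was measured.

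Positions are those of GENCODE M21 on GRCm38. Gyg (ENSMUSG00000019528; chromosome 3, 20122084 to 20155317) encodes glycogenin, the protein that primes a new glycogen particle by attaching the first glucose units to itself. Its level was 711, 709.6 and 784 CPM in P1 replicates 1 to 3 and 212, 165 and 151 CPM in P14 replicates 1 to 3. Every P14 library lay below every P1 library, and the ages were several times farther apart than the spread within either. This gave a log2 fold change of −2.06 ± 0.21 (SE, n = 3 libraries per age), with an edgeR adjusted p = 3.84e-06.

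Gbe1 (ENSMUSG00000022707; chromosome 16, 70313949 to 70569716) encodes the enzyme that adds branch points to the growing polymer. It measured 37.0, 54.5 and 35.7 CPM at P1 and 18.3, 13.4 and 15.6 CPM at P14. P1 replicate 2 was well above the other P1 libraries, and the ages did not overlap. On the log2 scale Gbe1 changed by −1.42 ± 0.23 (SE; edgeR adjusted p = 2.24e-04), and by −1.20 without P1 replicate 2.

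Gys1 (ENSMUSG00000003865; chromosome 7, 45434844 to 45456619) encodes the muscle form of glycogen synthase, which links glucose units into chains. The libraries held 167, 127 and 144 CPM at P1 and 121, 91.0 and 95.3 CPM at P14. The ages did not overlap, but the lowest P1 library and the highest P14 library were close. The log2 fold change was −0.51 ± 0.20 (SE), with an edgeR adjusted p = 0.0527, just above the threshold. With the replicate number as a block the edgeR adjusted p was 0.0404, and Gys1 fell in 9 of 17 alternative settings, whose adjusted p ranged from 3.75e-04 to 0.204. Among these were leaving out P1 replicate 2 (0.0101) or P14 replicate 1 (0.0308) and the correction for GC content and length (5.48e-04). Part of Gys1 overlaps Ruvbl2 on the opposite strand, 6.75% of its 36-base windows also occur in transcripts of other genes, and Ruvbl2 itself did not pass (edgeR adjusted p = 0.592).

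Ugp2 (ENSMUSG00000001891; chromosome 11, 21321138 to 21371201) encodes the enzyme that makes UDP-glucose, the glucose donor of synthesis. It measured 124, 184.5 and 122.1 CPM at P1 and 122, 99.3 and 112 CPM at P14. Apart from P1 replicate 2 the libraries of both ages lay within a narrow band, and the ages met almost exactly at 122 CPM. The fitted difference was −0.37 ± 0.21 on the log2 scale (SE; edgeR adjusted p = 0.173), and it was −0.15 without P1 replicate 2. The adjusted p ranged from 0.00467 to 0.803 over 17 alternatives, and 1 of them, library totals alone, passed.

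All 4 synthesis genes had every P14 library below every P1 library, an arrangement found in 27.5% of all tested genes. The reverse arrangement, every P14 library above every P1 library, held for Pygm and Phkg1 and for 27.3% of all tested genes. Pygl was also lower without overlap, and Pygb and Phka1 overlapped between ages.

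**Figure D1:**
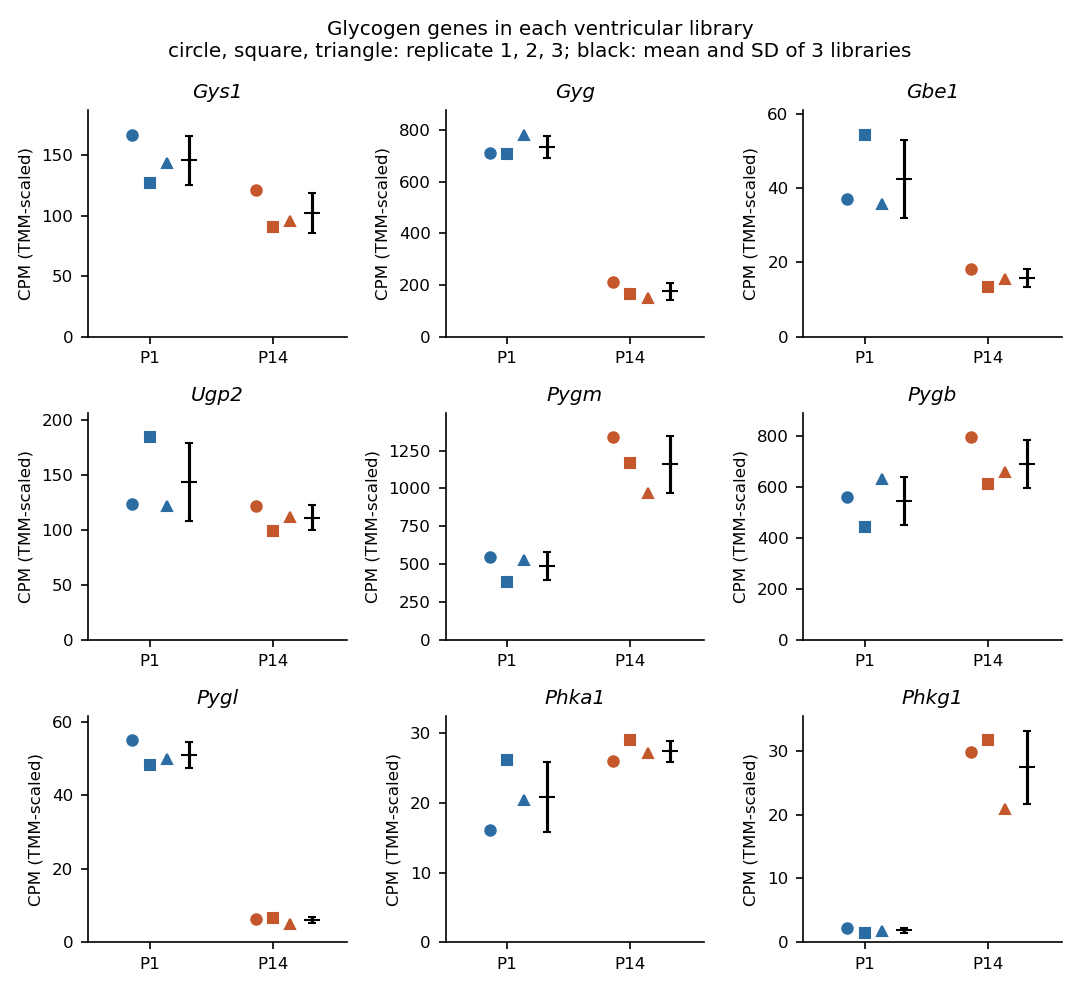
TMM-scaled CPM of the 9 glycogen genes in each of the 6 libraries, with age on the horizontal axis, replicates 1 to 3 as circle, square and triangle, and the mean and SD of 3 libraries in black. Gyg, Gbe1 and Pygl sit lower and Pygm and Phkg1 higher at P14, while P1 replicate 2 is the high P1 point for Ugp2, Gbe1 and Phka1.

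Glycogen phosphorylase, the enzyme that removes glucose units from chain ends, has 3 genes, named for muscle, brain and liver. Pygm (ENSMUSG00000032648; chromosome 19, 6384399 to 6398459), the muscle form, measured 546, 382 and 529 CPM at P1 and 1338, 1172 and 967 CPM at P14. All P14 libraries were above all P1 libraries, with P1 replicate 2 the lowest of the 6. Pygm rose by 1.25 ± 0.22 on the log2 scale (SE; edgeR adjusted p = 4.16e-04).

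Pygb (ENSMUSG00000033059; chromosome 2, 150786735 to 150831758), the brain form, measured 561, 442 and 632 CPM at P1 and 795, 614 and 659.7 CPM at P14. P1 replicate 3 lay above P14 replicate 2, so the ages overlapped. Its log2 fold change was 0.34 ± 0.21 (SE; edgeR adjusted p = 0.206). It passed in none of 17 alternatives, over which the adjusted p ranged from 0.138 to 0.778, and its sign turned with library totals alone (−0.095).

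Pygl (ENSMUSG00000021069; chromosome 12, 70190811 to 70231488), the liver form, measured 55.0, 48.2 and 49.8 CPM at P1 and 6.40, 6.51 and 5.02 CPM at P14. Both ages were tight and far apart, and the P14 values rest on 39 to 91 counts per library. Its log2 fold change was −3.09 ± 0.22 (SE; edgeR adjusted p = 2.00e-07).

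Pygl is also expressed in blood cells, so markers of other cells were measured beside it. Of 5 granulocyte markers 2 were tested and both fell, S100a8 and S100a9, and their summed level was 34.5 to 46.9 CPM at P1 and 5.28 to 7.11 CPM at P14. Of 6 macrophage markers 5 were tested and all 5 rose, with sums of 53.9 to 57.7 CPM at P1 and 193 to 204 CPM at P14. Of 5 erythroid markers 3 were tested and 2 rose (Hba-a1 and Alas2), and the sum of the 3 was 75.4 to 209 CPM at P1 and 402 to 630.5 CPM at P14. Beside these counts, 21.8% of all tested genes rose and 22.0% fell. The granulocyte markers Mpo, Ly6g and Camp and the hepatocyte markers Alb, Apoa1 and Ttr were not analysed here. The part of these cells in the fall of Pygl was not tested.

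The makeup of the phosphorylase family shifted with these changes. On the scale of CPM per kilobase of the principal transcript, Pygm took 51.7% ± 1.87 of the family at P1 and 69.2% ± 2.78 at P14 (SD, n = 3 libraries). Pygb took 42.7% ± 1.92 and 30.4% ± 2.81, and Pygl 5.62% ± 0.820 and 0.365% ± 0.0364. The summed level of the family was 326.5 ± 55.2 CPM per kilobase at P1 and 582 ± 83.2 at P14 (SD). With the length of all annotated exons instead, Pygm took 55.5% at P1 and 71.3% at P14, Pygb 41.7% and 28.5%, and Pygl 2.77% and 0.172%. Within single libraries the log2 count ratio of Pygm to Pygb, which needs no scaling between libraries, was −0.26 to −0.038 at P1 and 0.55 to 0.93 at P14. That of Pygm to Pygl was 2.99 to 3.41 at P1 and 7.48 to 7.70 at P14. Neither ratio overlapped between ages. Of the 36-base windows of Pygm, Pygb and Pygl, 0.87%, 0.59% and 0.99% also occur in transcripts of other genes.

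**Figure D2:**
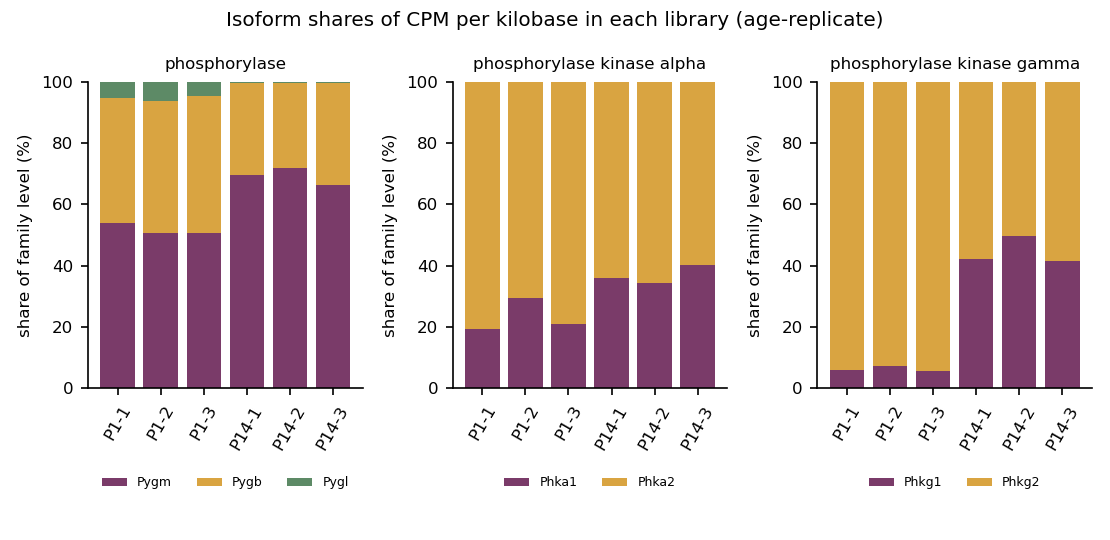
Share of the summed CPM per kilobase (percent, vertical axis) taken by each gene of the phosphorylase family and of the alpha and gamma subunits of phosphorylase kinase, 1 stacked bar per library. Pygm goes from 51.7% to 69.2% and Phkg1 from 6.21% to 44.4% on average, and the share of Pygm spans 50.5% to 53.9% over the P1 libraries and 66.3% to 71.9% over the P14 libraries.

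Phosphorylase kinase activates phosphorylase in response to calcium and adrenergic signals, and it joins alpha, beta, gamma and calmodulin subunits. Phkg1 (ENSMUSG00000025537; chromosome 5, 129863421 to 129898549) encodes the catalytic gamma subunit of muscle. It had 50, 25 and 11 counts in P1 replicates 1 to 3 and 422, 238 and 162 in P14 replicates 1 to 3. The P1 libraries thus held 2.31, 1.46 and 1.85 CPM, and the P14 libraries 29.7, 31.6 and 20.9 CPM. The lowest P14 library was far above the highest P1 library. Its log2 fold change was 3.85 ± 0.29 (SE; edgeR adjusted p = 2.87e-07), the largest of the 9 in size.

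Exons of Phkg1 overlap those of Sumf2 on the opposite strand, and 12.9% of its 36-base windows also occur in transcripts of other genes. Sumf2 itself rose, with 6.88 ± 0.708 CPM at P1 against 17.3 ± 1.88 at P14 (SD; edgeR adjusted p = 3.97e-04). The sources used here do not say whether strand entered the counting, and without it the reads of the 2 genes cannot be told apart where they overlap.

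Phkg1 and Pygm are also highly expressed in skeletal muscle. Of 9 skeletal muscle markers 6 were tested, 2 rose (Tnni2 and Mybpc2) and none fell. Among all tested genes 21.8% rose and 22.0% fell. Tnnt3, Ckm, Acta1 and Pvalb did not pass, with log2 fold changes of −0.86, 0.30, 0.98 and 1.33. The summed level of the 6 was 728 to 3075 CPM at P1 and 2260 to 2834 CPM at P14, so the ages overlapped. Most of that sum was Ckm, which heart muscle also expresses, with means of 1858 and 2286 CPM. Myh1, Myh2 and Myh4, the fast myosin heavy chains, were not analysed here. The part of skeletal muscle in the rise of Phkg1 and Pygm was not tested.

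Phka1 (ENSMUSG00000034055; chromosome X, 102513975 to 102644246) encodes the muscle form of the regulatory alpha subunit. It measured 16.1, 26.1 and 20.4 CPM at P1 and 26.0, 28.9 and 27.2 CPM at P14. P1 replicate 2 reached the P14 range and the other P1 libraries lay below it. The fitted difference was 0.39 ± 0.22 on the log2 scale (SE; edgeR adjusted p = 0.171). Phka1 rose without P1 replicate 2 (log2 fold change 0.60; edgeR adjusted p = 0.0188) and after correction for GC content and length (0.66; edgeR adjusted p = 0.0025), while its sign turned with library totals alone (−0.079). Over 17 alternatives the adjusted p ranged from 0.00132 to 0.829, and 3 passed.

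The kinase subunits named for other tissues, and the shared ones, were measured beside these. Phka2, the liver form of the alpha subunit, fell by 0.53 ± 0.20 on the log2 scale (SE; edgeR adjusted p = 0.0436), and held 46.2 ± 4.99 CPM at P1 against 31.9 ± 5.02 at P14 (SD). That call ended in 6 of 17 alternatives, which were the GC content and length correction (0.0519) and leaving out P1 replicate 1 (0.0745), P1 replicate 3 (0.164) or any 1 P14 library (0.0547 to 0.182). Over all 17 the adjusted p ranged from 0.00104 to 0.182. Phkg2, the liver and testis form of the gamma subunit, had 22.5 ± 6.93 and 26.4 ± 4.74 CPM (edgeR adjusted p = 0.469). Phkb, the shared beta subunit, had 22.0 ± 7.45 and 27.7 ± 5.54 CPM (edgeR adjusted p = 0.333). Phkb rose without P1 replicate 2 (0.0206) and after correction for GC content and length (0.00564), within a range of 0.00267 to 0.718.

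On the per-kilobase scale Phkg1 was 6.21% ± 0.845 of the gamma family at P1 and 44.4% ± 4.52 at P14, and Phka1 was 23.4% ± 5.45 and 36.9% ± 3.06 of the alpha family (SD, n = 3 libraries). With the length of all annotated exons, Phkg1 was 4.99% at P1 and 38.8% at P14, and Phka1 was 30.3% and 45.6%. Per kilobase of principal transcript Phkg1 was below Phkg2 in every library, but the 2 were nearly equal in P14 replicate 2 (49.7% against 50.3%). The log2 count ratio of Phkg1 to Phkg2 was −3.68 to −3.31 at P1 and −0.12 to 0.35 at P14. The log2 count ratio of Phka1 to Phka2 was −1.48 to −0.69 at P1 and −0.36 to 0 at P14. In the Phkg2 model 22.0% of 36-base windows occur in other transcripts, mainly those of Ccdc189 on the opposite strand.

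Synthesis and breakdown were also set against each other within libraries, with the synthase over the muscle phosphorylase. The log2 count ratio of Gys1 to Pygm was −1.73 ± 0.147 at P1 and −3.50 ± 0.175 at P14 (SD), a 3.41-fold lower ratio. All 5 ratios examined separated the ages without overlap. Such separation was common among single genes, with 27.3% higher and 27.5% lower at P14 without overlap. The share over other gene pairs was not computed, and the genes were chosen with earlier results known. For each ratio the exact two-sided permutation test over 6 libraries gave p = 0.1, the smallest this design allows. It was 0.1 after Benjamini-Hochberg adjustment over the 5.

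Per kilobase of principal transcript, Gyg had the highest level of the 9 at P1, 433 ± 25.1 CPM per kilobase (SD). Pygm (169 ± 31.5) and Pygb (139 ± 24.6) followed and overlapped each other. Ugp2 (53.5 ± 13.2) and Gys1 (39.7 ± 5.51) came next, with the lowest Ugp2 library at 45.5 and the highest Gys1 library at 45.46. Pygl (18.1 ± 1.25) and Gbe1 (14.9 ± 3.69) overlapped, and Phka1 (3.41 ± 0.817) and Phkg1 (0.789 ± 0.180) were lowest.

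At P14 the order was led by Pygm, 403 ± 64.8 CPM per kilobase, followed by Pygb (176 ± 24.1) and Gyg (104 ± 18.9), each without overlap with the next. Ugp2 (41.4 ± 4.24) and Gys1 (27.9 ± 4.48) held the same ranks as at P1. Phkg1 (11.5 ± 2.41) stood sixth, Gbe1 (5.54 ± 0.860) and Phka1 (4.47 ± 0.244) overlapped, and Pygl (2.12 ± 0.293) was lowest. With the length of all annotated exons in place of the principal transcript, ranks 6 to 8 at P14 became Phka1, Phkg1 and Gbe1, and Gbe1 and Pygl changed places at P1.

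Of 35 other genes of glycogen metabolism, listed by role, 33 were tested: 3 rose, 9 fell and 21 did not pass, beside 21.8% that rose and 22.0% that fell among all tested genes. The median log2 fold change was 0.025, beside −0.01 over all tested genes. Gys2 (liver glycogen synthase) and Ppp1ca were not analysed here. The number that rose was 9 after correction for GC content and length, 6 with the replicate block and 6 without P1 replicate 2. Over all tested genes the number that rose also grew in these settings, to 3724, 3561 and 3401, against 3115. Without P14 replicate 2, 6 of the other pathway genes fell, beside 2269 of all tested genes, against 3149.

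Stbd1, a protein that tethers glycogen to membranes, held 162 ± 34.8 CPM at P1 and 23.2 ± 7.24 at P14 (SD) and fell by 2.79 ± 0.26 on the log2 scale (SE; edgeR adjusted p = 1.82e-06). Phosphoglucomutase interconverts glucose 1-phosphate and glucose 6-phosphate, and its main muscle gene is the row ENSMUSG00000025791, called Pgm2 in the table and Pgm1 in GENCODE M21. It had 261 ± 8.79 CPM at P1 and 345 ± 34.3 at P14, without overlap, and did not pass (edgeR adjusted p = 0.0956). It passed after correction for GC content and length (0.0113), and over 17 alternatives the adjusted p was 0.0113 to 0.874. In this model 13.6% of 36-base windows occur in other transcripts, mainly those of Itgb3bp on the opposite strand, which fell (edgeR adjusted p = 0.00591). The row called Pgm1, which is Pgm2 in GENCODE M21, fell from 9.13 to 4.56 CPM (edgeR adjusted p = 0.00594). Pgm2l1 did not pass (edgeR adjusted p = 0.0568), and it rose with the replicate block (0.0435), without P1 replicate 2 (0.024) and after correction for GC content and length (0.00576).

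Gaa, the lysosomal glucosidase that digests glycogen inside lysosomes, had 48.2 ± 20.4 CPM at P1 and 67.0 ± 5.84 at P14 (SD; edgeR adjusted p = 0.195). P1 replicate 2 held 24.7 CPM of Gaa against 59.4 and 60.5 in the other P1 libraries. With the replicate block Gaa rose (edgeR adjusted p = 0.024), within a range of 0.024 to 0.968 over 17 alternatives.

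Protein phosphatase 1 removes phosphate from glycogen synthase and phosphorylase, and its targeting subunits bring it to glycogen. Of 11 tested genes of this group 2 rose, 2 fell and 7 did not pass, beside 21.8% that rose and 22.0% that fell among all tested genes. The targeting subunit Ppp1r3c rose by 2.14 ± 0.22 on the log2 scale (SE; edgeR adjusted p = 4.02e-06), with 26.4 ± 6.33 CPM at P1 and 116 ± 7.002 at P14 (SD). The muscle targeting subunit Ppp1r3a rose from 18.3 ± 5.28 to 43.3 ± 13.5 CPM. The phosphatase inhibitor Ppp1r1a fell by 2.58 ± 0.27 on the log2 scale (SE), with 44.0 ± 13.6 CPM at P1 and 7.39 ± 1.34 at P14 (SD). Ppp1r3g, another targeting subunit, fell from 55, 29 and 9 counts in P1 replicates 1 to 3 to 6, 1 and 1 counts at P14.

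Among regulators, Nhlrc1 (malin, a ubiquitin ligase that acts with laforin on glycogen) rose from 3.32 to 5.90 CPM (edgeR adjusted p = 0.0247). That call ended with library totals alone (0.349) and when P1 replicate 1 (0.106), P14 replicate 1 (0.0644) or P14 replicate 3 (0.0712) was left out, within a range of 0.0179 to 0.349. Epm2a (laforin) had 8.15 and 12.7 CPM (edgeR adjusted p = 0.0613) and rose with the replicate block (0.0308), without P1 replicate 2 (0.00545) and after correction for GC content and length (0.00883), within a range of 0.00483 to 0.721. Of 9 tested synthase kinase and AMP-activated protein kinase genes 2 fell, none rose and 7 did not pass. Among all tested genes 22.0% fell and 21.8% rose. Prkag2, an AMP-sensing gamma subunit in which mutations cause cardiac glycogen storage, fell from 130.5 ± 17.0 to 28.7 ± 7.74 CPM (SD; log2 fold change −2.18 ± 0.23, SE), and 12.4% of its 36-base windows occur in other transcripts, mainly antisense ones. Prkaa2, the catalytic subunit prominent in muscle, fell from 95.6 ± 26.5 to 52.8 ± 10.9 CPM (SD).

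Calmodulin, the calcium-sensing subunit of phosphorylase kinase and of many other proteins, is encoded by several genes. Calm2 and Calm3 fell, with log2 fold changes of −0.69 ± 0.20 and −0.70 ± 0.24 (SE; edgeR adjusted p = 0.0108 and 0.0288). The Calm2 call ended without P14 replicate 2 (0.0601), within a range of 1.04e-04 to 0.0601. The Calm3 call ended without P1 replicate 1, P1 replicate 3, P14 replicate 2 or P14 replicate 3, within a range of 1.70e-05 to 0.13. Both calls are uncertain, since leaving out a single library could end them. Of the 36-base windows of Calm2 and Calm3, 15.5% and 4.17% occur in other transcripts, and the effect of this on the counts was not tested.

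**Figure D3:**
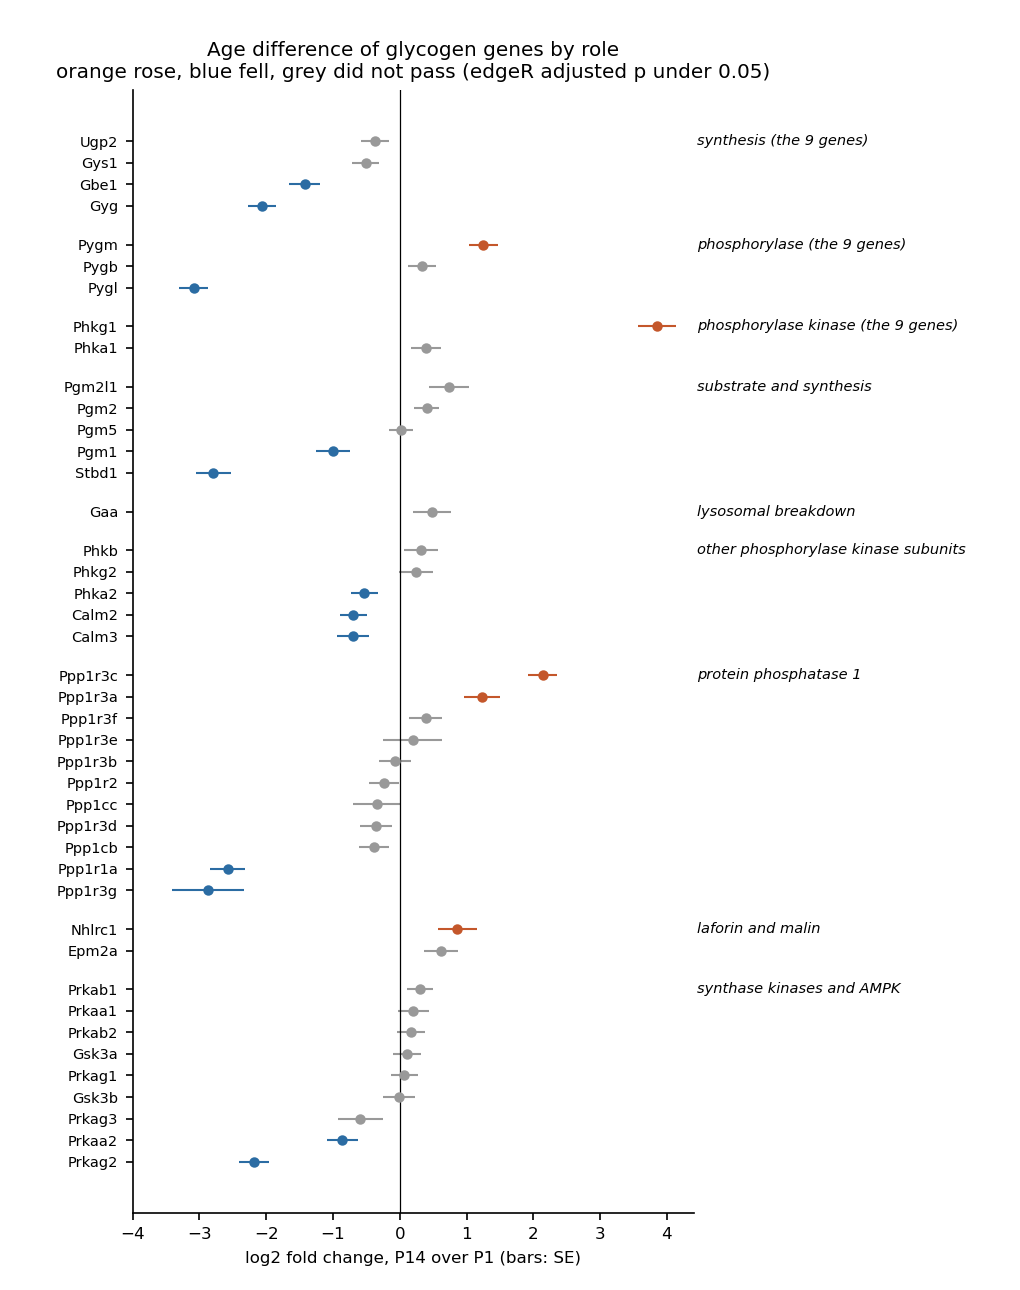
Fitted log2 fold change of P14 over P1 (horizontal axis, bars are SE) for the 9 glycogen genes and the 33 other tested genes of the pathway, grouped by role. Orange points rose, blue points fell and grey points did not pass, and Phkg1 at 3.85 and Pygl at −3.09 mark the ends of the range.

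The 3 genes whose profile over the 6 libraries was nearest to that of Phkg1, by Euclidean distance between centred log2 CPM among 8438 genes of at least 10 mean CPM, were Sod3, Crispld2 and Htra3, at distances of 0.56, 0.58 and 0.64. Sod3 went from 2.44 to 30.3 CPM. Those nearest to Pygl were Abat, Hn1l and Ears2, at 0.37, 0.39 and 0.46, and Abat went from 23.9 to 2.99 CPM. All 6 share the libraries and their scaling with the gene they were matched to, and the distances are descriptions.

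The 5 calls among the 9 genes held under all 17 alternative settings. Fitted log2 fold changes ranged from −2.50 to −1.81 for Gyg, −1.90 to −1.08 for Gbe1, −3.54 to −2.89 for Pygl, 0.81 to 1.37 for Pygm and 3.37 to 4.11 for Phkg1. After correction for GC content and length 3 of the 9 rose (Phka1 in addition) and 4 fell (Gys1 in addition), as they did without P1 replicate 2. Over all tested genes 3724 rose and 3650 fell with the correction, and 3401 rose and 3309 fell without P1 replicate 2. With library totals alone 1620 of all tested genes rose and 5592 fell. Of the 9 glycogen genes 2 rose and 5 fell under that scaling, with Gys1 and Ugp2 falling in addition. Measured from the median of all genes, those 2 had log2 fold changes of −0.49 and −0.37 under that scaling and −0.50 and −0.36 with TMM.

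**Figure D4:**
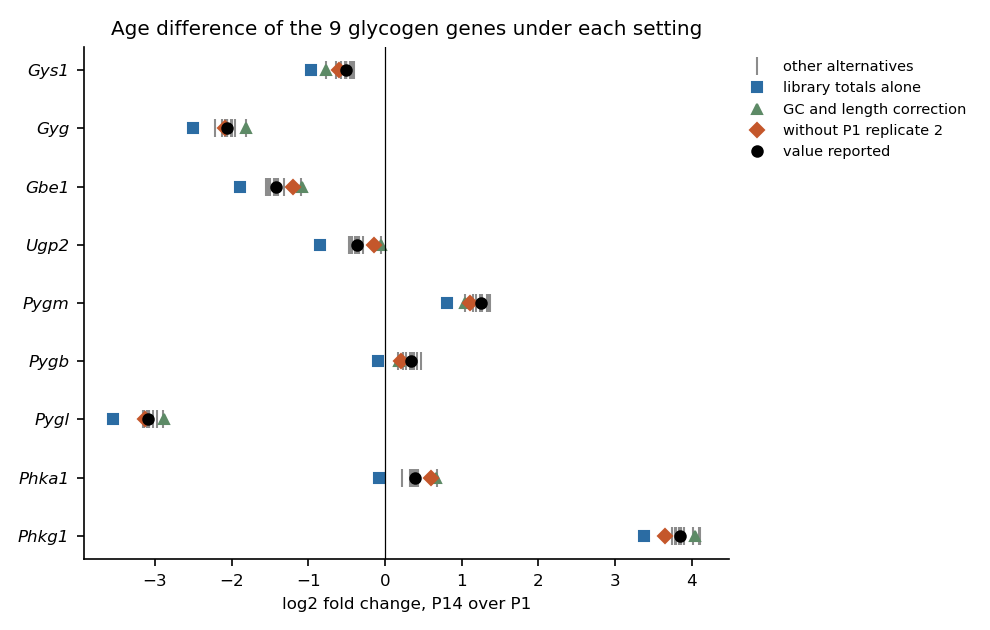
Log2 fold change of P14 over P1 (horizontal axis) for each of the 9 genes, with the reported value in black and the alternatives as other marks. Gyg, Gbe1, Pygl, Pygm and Phkg1 stay on one side of 0 under every setting drawn, while Pygb and Phka1 cross it with library totals alone.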

How the data were processed

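Poly(A)-selected RNA of pooled mouse ventricles was read over 36 cycles (Genome Analyzer IIx), per the labels' protocols. The authors deposited a table of raw read counts per gene (14495 genes, smallest gene total 60); no column was left out. Per the submitters' processing notes the build was GRCm38 (mm10), with bedtools and edgeR 3.2.4 named without a role; the aligner, counter, annotation and strand use were not given in the sources used.

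Genes were kept with filterByExpr (minimum count 10; 14301 kept, 194 removed), scaled by TMM and tested with edgeR 4.0.16 (robust quasi-likelihood F-test, age only, two-sided, Benjamini-Hochberg over all genes tested, threshold 0.05; common biological coefficient of variation 23.0%) in R 4.3.3. Standard errors are the log2 fold change divided by the square root of F. Alternatives used DESeq2 1.42.0, limma 3.58.1, other scalings and filters, a GC content and length correction (splines with 4 degrees of freedom each), the replicate block, and leaving out each library. Ratios used a pseudocount of 0.5 counts. P1 replicate 3 was the shallowest library (5916557 counts). No 2 libraries of an age were alike within sampling noise (chi-square per degree of freedom of at least 13).

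The main tests treated the libraries as unpaired, and the replicate number entered as a block only among the alternatives. Deviations from the age means correlated at 0.295, 0.112 and 0.102 between same-numbered libraries, each above 0.1. Between other libraries they correlated at −0.214 to 0.09, close to the lowest of the same-numbered values. The labels do not state a pairing, so whether the libraries are paired is not known.

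Positions, lengths, GC content and shared windows came from GENCODE M21, in which 14316 identifiers (98.8%) were found; promoter stretches came from RefSeq, where all 9 genes matched. The members and lists were chosen with earlier results of these data known. Named genes are the 9 members, Gys2, Gaa, Phka2, Phkb, Phkg2, Pgm1, Pgm2 and Stbd1 whatever their result (some results are not reported here), up to 3 called genes of the largest change in each of the remaining roles (mean of at least 1 CPM), and the 3 genes nearest in profile to the members with the largest rise and fall. Ppp1r3a, Epm2a, Pgm2l1, Calm2, Calm3 and genes overlapping members were named after their values were seen.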

Additional observations from a re-analysis of the deposited data

How the results depend on the processing

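Over 17 alternatives (16 for 3 genes that the stricter filter removed) and 27 genes (the 9 members and 18 others named in the pathway), 409 fitted values kept their direction and side of the threshold, 27 gained a call, 15 lost one and 5 turned sign. With library totals alone the sign turned for Pygb (−0.095), Phka1 (−0.079), Phkb (−0.165), Phkg2 (−0.20) and the table's Pgm2 (−0.055); none of these passed in either fit. Under that scaling 1620 genes rose and 5592 fell (22.5% of calls higher, against 49.7% of 3115 and 3149 with TMM), 5 of the 9 glycogen genes fell, and 2 other pathway genes rose and 13 fell, against 3 and 9; the median of all genes moved alike. Of the other pathway genes 9 rose after GC content and length correction, also 9 with the replicate block added, and 6 with the block alone, against 3. Leaving out single libraries gave 2 to 6. Over all tested genes 3724 rose with the correction, 3893 with the block added and 3561 with the block alone, against 3115. That number was 2387 to 3401 when single libraries were left out. The cause was not tested. The replicate block changed the calls of Gys1, Pgm2l1, Gaa and Epm2a and no other among these genes; for each of the 5 ratios it gave the same difference, such as 0.91 for Pygm to Pygb, with an exact sign-flip p = 0.25, the smallest 3 pairs allow. No alternative moved a ratio beyond the spread between replicates. Changes in Phkg1 at P1 (11 to 50 counts) and Ppp1r3g at P14 (1 to 6 counts) rest on few reads.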
